A study of Ciona robusta with 8 samples.

Results

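KH.C6.71 (listed as KH2013:KH.C6.71) is the gene model of Tcf/Lef, the gene that the guide RNA (gRNA) of this experiment was designed against. It is 1 of the 15232 gene models counted in each library, and it was taken by its identifier from all 8 libraries. The count tables carry model numbers and no gene names. The name therefore comes from general knowledge of the KH gene set of Ciona and not from the deposited values. The model was selected on its identity as the target, with its measured difference between the Tcf and control guides already known. That difference is therefore a description without a test. The change with time was not used in the selection and is tested.

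Tcf/Lef proteins are DNA-binding factors of the HMG-box family and act at the end of the canonical Wnt pathway. When a Wnt ligand stabilises β-catenin, β-catenin binds Tcf/Lef on its target genes and activates them. Without β-catenin, the same factors recruit Groucho-type co-repressors and keep those genes off. CRISPR/Cas9 cuts the DNA that its guide matches, and faulty repair leaves small insertions or deletions. Such changes can disable a protein without any change in the amount of its transcript, and the level of the transcript is therefore a separate measurement from the share of edited alleles.

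The libraries came from trunk ventral cells of the sea squirt Ciona robusta, described in the labels as multipotent progenitors of the cardiopharyngeal lineage, which gives rise to the heart and to pharyngeal muscle. The 4 groups of 2 libraries were cells given a control gRNA and taken 15 hours post fertilization (hpf), cells given the Tcf gRNA at 15 hpf, and the same guides at 18 hpf. The sources used here do not give the promoter that drove Cas9, the sequence and number of the guides, the target of the control gRNA or the reporter used for sorting. A sample held 200 to 800 sorted cells in bulk, so fewer cells with the transcript and less transcript per cell cannot be told apart. The labels do not tie the libraries to separate electroporations. The p-values set a difference between groups against the spread between replicate libraries, which may be technical. That spread is estimated with information shared across models and groups. Library totals ran from 6207795 to 9556959 counts. Marker genes of the progenitors could not be looked up, because none of the 15232 identifiers matched the RefSeq table of 21486 genes (0 matches).

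The level of KH.C6.71 is given in CPM, the counts scaled to a library total of 1000000. Each value is followed by its exact (Clopper-Pearson) 95% binomial interval, which covers counting error only. In control cells at 15 hpf the level was 246 CPM in replicate 1 (1526 counts, interval 234 to 258) and 258 CPM in replicate 2 (2007 counts, interval 247 to 270). In cells with the Tcf gRNA at 15 hpf it was 46.1 CPM in replicate 1 (335 counts, interval 41.3 to 51.3) and 56.4 CPM in replicate 2 (438 counts, interval 51.3 to 62.0). Both Tcf libraries lay below both control libraries, and the gap between the nearest libraries of the 2 guides was 189 CPM.

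At 18 hpf the control libraries held 214 CPM in replicate 1 (2048 counts, interval 205 to 224) and 200.5 CPM in replicate 2 (1314 counts, interval 190 to 212). The Tcf libraries held 65.8 CPM in replicate 1 (511 counts, interval 60.2 to 71.8) and 83.3 CPM in replicate 2 (647 counts, interval 77.0 to 90.0). The 2 guides again did not overlap, with 117 CPM between the nearest libraries. The lowest of the 8 counts was 335, so the transcript was detected in every Tcf library.

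**Figure D1:**
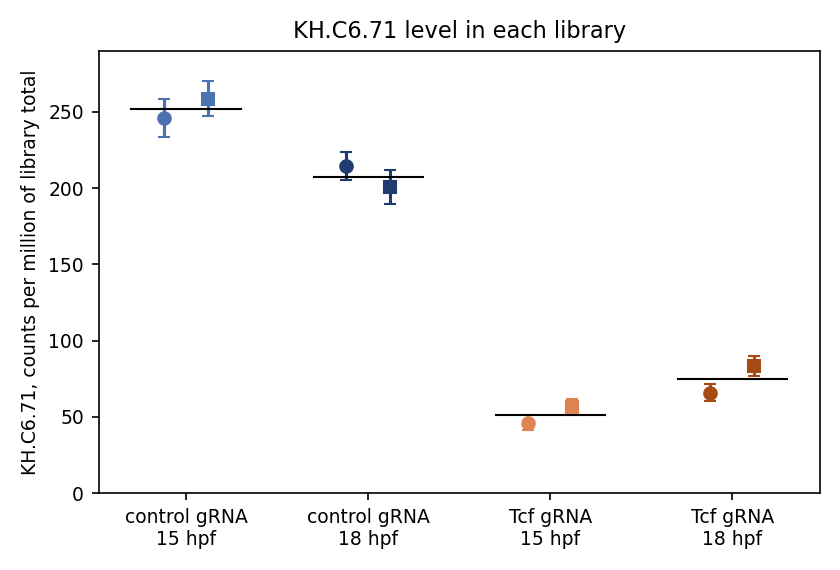
Level of KH.C6.71 in each of the 8 libraries, in CPM of the library total (vertical axis, from 0), by guide and time. Circles are replicate 1 and squares replicate 2, bars are exact 95% binomial intervals of counting error, and black lines are group means; the 4 control libraries sit between 200.5 and 258 and the 4 Tcf libraries between 46.1 and 83.3.

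By group mean the levels ran in the order control at 15 hpf, control at 18 hpf, Tcf at 18 hpf and Tcf at 15 hpf. The means were 252 ± 8.94 CPM and 207 ± 9.77 CPM in control cells at 15 and 18 hpf, and 74.6 ± 12.4 CPM and 51.3 ± 7.29 CPM in Tcf cells at 18 and 15 hpf (SD, n = 2 each). The neighbours at the bottom of this order, both with the Tcf gRNA, were separated by 9.38 CPM between their nearest libraries. That gap was less than the SD of the group at 18 hpf (12.4 CPM) and more than that at 15 hpf (7.29 CPM). The neighbours at the top, both with the control gRNA, were separated by 31.5 CPM, more than the SD of either group. The single large step lay between the guides.

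Transcript of the targeted gene was lower in Tcf cells and was still detected. At 15 hpf the mean level in Tcf cells was 20.3% of the control mean, with 18.3% in replicate 1 and 22.4% in replicate 2. At 18 hpf it was 36.0% of the control mean, with 31.7% and 40.2%. Over all pairings of a Tcf with a control library the remaining level ran from 17.8% to 23.0% at 15 hpf. At 18 hpf it ran from 30.7% to 41.6%. The pairings at each time reuse the same libraries, so the ranges are a description. The share of edited alleles, the sequence of the remaining transcripts and the level of Tcf protein are not analysed here. Bulk counts per gene model do not separate transcript of edited from that of unedited alleles, so the remaining 20.3% and 36.0% are not shares of unedited cells.

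On the log2 scale, edgeR's quasi-likelihood fit to all 8 libraries gave a fold change of -2.29 (SE 0.18) at 15 hpf and -1.50 (SE 0.17) at 18 hpf for Tcf minus control. The interaction, the value at 18 hpf minus that at 15 hpf, was 0.79 (SE 0.24). These values are descriptions, since the difference between guides was known when the model was picked. Over the 11970 models tested, the median log2 fold change between guides was 0.01 at each time, and 95% of models lay between -1.36 and 1.57 at 15 hpf and between -0.91 and 1.28 at 18 hpf. The median SE over these models was 0.35 at 15 hpf and 0.34 at 18 hpf. For the interaction, 95% of models lay between -1.85 and 1.98, with a median SE of 0.49. An interaction larger in size than that of KH.C6.71 was fitted for 21.0% of models.

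A low value in both Tcf libraries is common by itself. Of the 11970 models, 15.2% had both Tcf libraries below both control libraries at 15 hpf and 13.9% at 18 hpf, and 2.09% (250 models, KH.C6.71 among them) at both times. Larger differences were found in fewer models, a count that ranks the difference known when the model was picked. Among the 6584 tested models with a mean of at least 10 CPM, 26 had a log2 fold change of -1 or below at 15 hpf, 40 at 18 hpf and 3 at both times. The 15 and 18 hpf comparisons share no library, but they come from the same fit with a shared estimate of spread. They are not read as separate support. KH.C6.71 was 1 of these 3, and the other models, named after their values were seen, were KH.C4.404 (-1.72, SE 0.27, and -2.81, SE 0.45) and KH.S404.12 (-1.23, SE 0.45, and -2.81, SE 0.49). The mean that admits a model is over all 8 libraries, and both passed it through the groups where they are high. KH.C4.404 was at 94.6 and 125 CPM in control libraries at 15 hpf, but its value at 18 hpf compares 6.28 and 4.27 CPM in control with 1.16 and 0.386 CPM in Tcf libraries. KH.S404.12 was at 11.2 to 22.1 CPM in the 4 control libraries and at 2.45 to 9.02 CPM in the 4 Tcf libraries. The files pair neither identifier with a gene, and the counts of 26, 40 and 3 are a description.

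With the call rule used for the change with time, an adjusted p under 0.05 over all models, KH.C6.71 was the 1 model called between guides at each time (0.00835% of 11970), and nothing is read from this, since the selection knew it. The number called at 15 hpf became 4 and 6 when control replicate 1 or 2 of that time was left out, 3 and 6 when those of 18 hpf were, and 19 and 2 when Tcf replicate 1 or 2 of 15 hpf was. At 18 hpf it became 2 when either control library of 15 hpf was left out, 6 when either of 18 hpf was, and 0 when Tcf replicate 1 of 18 hpf was (edgeR, 286 models at an unadjusted p under 0.05). KH.C6.71 was then not called either.

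At 15 hpf, 2 of the 6584 models had a lower log2 fold change than KH.C6.71, and both values rested on control replicate 1. KH.C12.572 had 51.1 CPM in that library and 0.129 CPM in control replicate 2 (log2 fold change -6.49, SE 2.66). KH.L153.9 had 48.5 and 5.28 CPM in the same libraries (-2.32, SE 0.93). At 18 hpf 14 of the 6584 models had a lower value than KH.C6.71. KH.C4.404 and KH.S404.12 were among them (both -2.81), and the libraries behind the others are not given here. No other model among the 6584 was as low as KH.C6.71 at both times (0 models). Without the limit of 10 CPM, 78 of the 11970 tested models had a lower value at 15 hpf and 75 at 18 hpf. All these counts are a description, since the difference between guides was known when the model was picked.

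**Figure D2:**
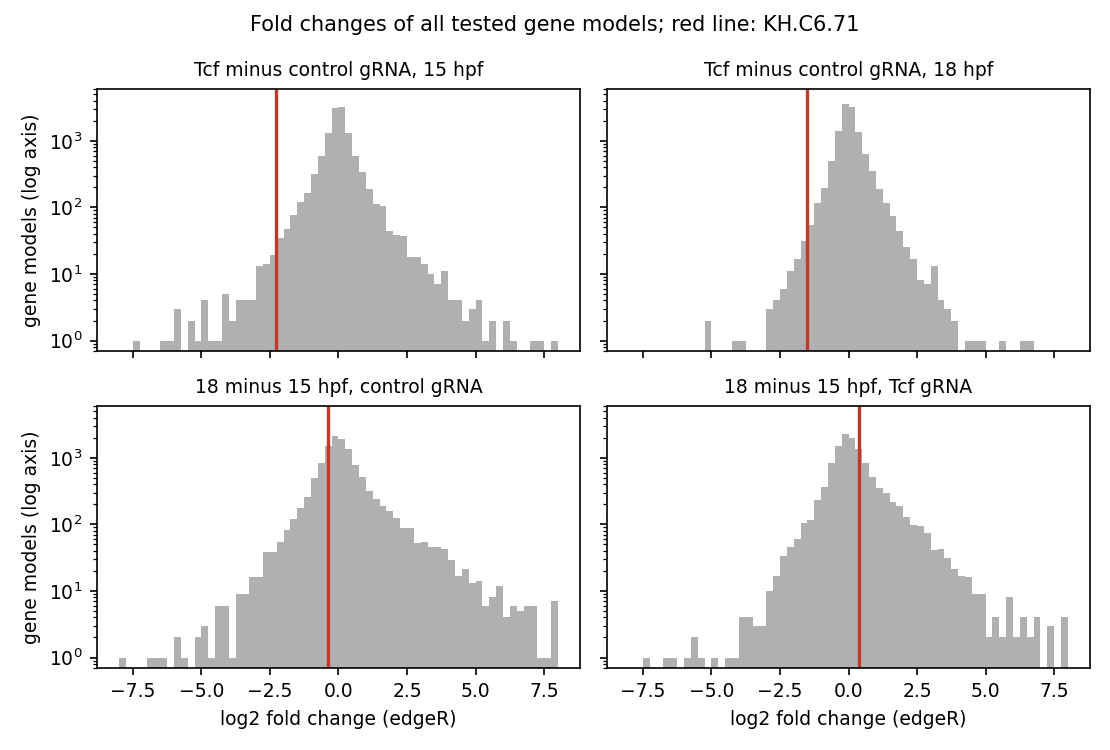
Number of the 11970 tested gene models (vertical log axis) by log2 fold change in bins of 0.25, for the 2 comparisons of guides (top) and the 2 comparisons of times (bottom); the few values beyond 8 in size are counted in the end bins. The red line marks KH.C6.71, at -2.29 and -1.50 between guides, in the lower tail, and at -0.40 and 0.39 between times, near the middle.

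The comparison of times asked whether the level of Tcf/Lef transcript differed between younger and older progenitors. In control cells the mean CPM at 18 hpf was 0.822 times that at 15 hpf, and both later libraries were below both earlier ones. This change did not pass edgeR's quasi-likelihood test (log2 fold change -0.40, SE 0.17, unadjusted p = 0.0336, Benjamini-Hochberg adjusted p = 0.149 over 11970 models). In Tcf cells the mean at 18 hpf was 1.45 times that at 15 hpf, with both later libraries above both earlier ones, and this change did not pass either (0.39, SE 0.17, unadjusted p = 0.0434, adjusted p = 0.188, edgeR). Each change was under 0.05 before the adjustment over all models and above it afterwards. With library totals in place of trimmed mean of M-values (TMM) factors the change in Tcf cells did pass (0.54, adjusted p = 0.0361, edgeR). The change in control cells did not (-0.28, adjusted p = 0.241, edgeR). In Tcf cells that scaling moved the median of all models by 0.15. Relative to the median, the value of KH.C6.71 in Tcf cells was 0.34 under both scalings.

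The call rule, an adjusted p under 0.05, took 13% of the 11970 models in control cells, of which 5.86 percentage points were lower at 18 hpf, and 11.1% in Tcf cells, of which 5.7 points were higher. KH.C6.71 was in neither list. The lists held 1557 and 1325 models. The first shrank to 931 when control replicate 1 of 15 hpf was left out and to 999 when control replicate 2 of 18 hpf was. The second shrank to 806 or 814 when Tcf replicate 1 or 2 of 15 hpf was left out, and to 687 or 705 when that of 18 hpf was. A change larger in size than that of KH.C6.71 was fitted for 50.7% of the models in control cells and 49.8% in Tcf cells. Among the 6584 models with a mean of at least 10 CPM, 1340 had a lower log2 fold change with time in control cells, and 5436 had a lower one in Tcf cells.

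Non-overlap of the times was also common, with 18.9% of models lower in both later control libraries and 38.8% higher in both later Tcf libraries. Lower with time in control and higher with time in Tcf cells, as KH.C6.71 was, were 181 models (1.51%), and 97 (0.81%) had the reverse order. The order in Tcf cells was close. With TMM factors the nearest libraries of the 2 times held 60.3 and 60.4 CPM, and with relative log expression (RLE) factors the earlier library, at 60.2 CPM, was above the later one, at 59.8 CPM. The composition of the libraries moved with time as well. The 100 most abundant models took 35.7% to 36.4% of the counts in the 4 libraries of 15 hpf and 32.0% to 32.8% in the 4 of 18 hpf, and TMM factors were 0.936 to 0.968 and 1.00 to 1.09. The part of composition in the change of KH.C6.71 with time was not tested beyond these scalings.

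**Figure D3:**
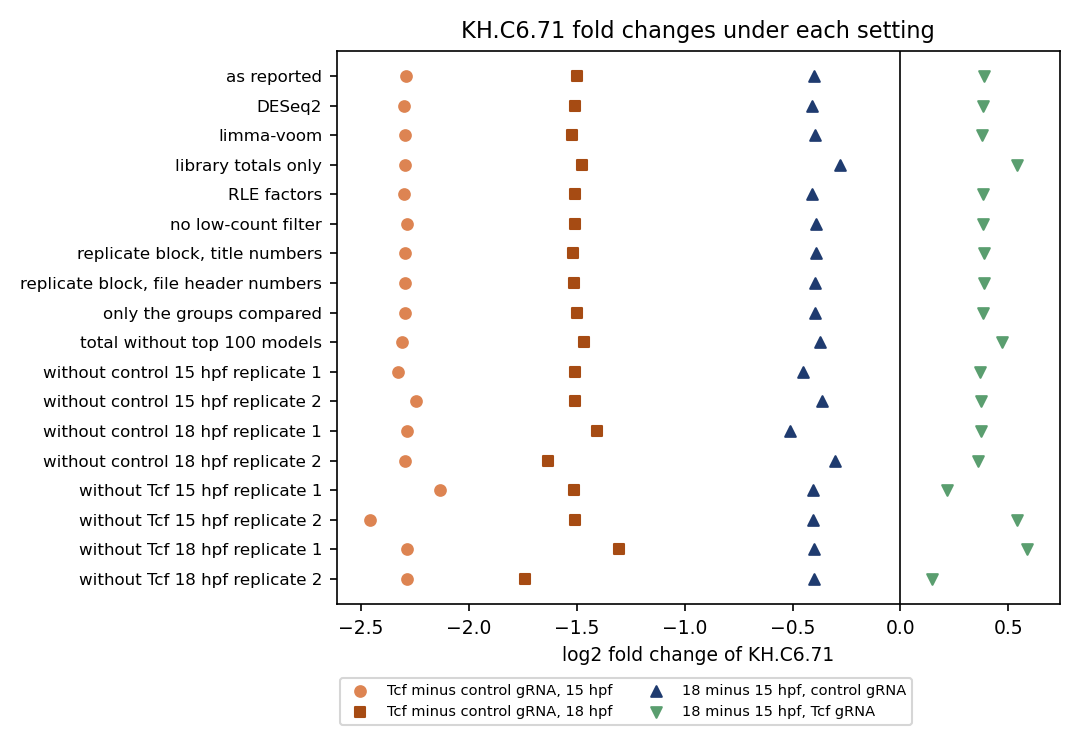
Log2 fold change of KH.C6.71 (horizontal axis) for the 2 comparisons of guides and the 2 of times, as reported and under 17 other settings. Values between guides stay between -2.46 and -2.13 at 15 hpf and between -1.74 and -1.30 at 18 hpf; values between times stay below 0 in control and above 0 in Tcf cells.

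Relative to the level, replicates of KH.C6.71 differed more in Tcf than in control cells. On the scale of log2 CPM with TMM factors (prior count 2), the 2 control libraries differed by 0.07 at 15 hpf and 0.21 at 18 hpf, and the 2 Tcf libraries by 0.34 and 0.42. Over all tested models the median difference between the same libraries was 0.34 and 0.30 for control cells, and 0.27 at both times for Tcf cells. KH.C6.71 therefore lay below that median in both control groups and above it in both Tcf groups. A smaller difference was found for 12.9% and 36.8% of models between the control libraries of 15 and 18 hpf. Between the Tcf libraries it was 57.0% and 66.1% of models, not far above the middle. With 2 libraries in a group, no test of this spread was made. In CPM of the library total the higher library was 1.05 and 1.07 times the lower one in control cells and 1.22 and 1.27 times in Tcf cells. The SD in CPM did not keep this order. It was 7.29 in Tcf and 8.94 in control cells at 15 hpf, and 12.4 and 9.77 at 18 hpf. With TMM factors it was 8.94 in Tcf and 9.27 in control cells at 15 hpf, and 14.6 and 20.2 at 18 hpf.

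The models most like KH.C6.71 were found by the root mean square (RMS) difference of log2 CPM over the 8 libraries, after each model was centred on its own mean. Among 6583 models with a mean of at least 10 CPM, the median difference was 1.02 and the smallest 0.57. A model with no change at all would have stood at 0.98, the RMS of KH.C6.71 about its own mean. The nearest model thus matched its profile only in part.

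KH.C6.128 was the nearest (RMS difference 0.57). At 15 hpf its control libraries were at 59.6 and 49.5 CPM and its Tcf libraries at 21.9 and 28.6 CPM. At 18 hpf its control libraries were at 52.9 and 75.2 CPM and its Tcf libraries at 33.9 and 49.5 CPM. The guides did not overlap at either time, but the nearest libraries at 18 hpf were 52.9 and 49.5 CPM. KH.L46.6 followed (0.63), with control libraries at 33.5 and 26.3 CPM and Tcf libraries at 13.6 and 22.7 CPM at 15 hpf. At 18 hpf its control libraries were at 38.4 and 22.9 CPM and its Tcf libraries at 11.1 and 13.01 CPM, and the guides did not overlap at either time. Both models were picked as nearest to a profile in which the guides do not overlap, so their own order is not a separate result. Of the 11970 models, 2.09% had it at both times.

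The mirror image of the profile, low in control and high in Tcf libraries, was matched nearest by KH.C1.152 (0.65) and KH.C4.697 (0.65). The control mean of KH.C1.152 was 5.69 ± 3.12 CPM at 15 hpf, where the Tcf mean was 21.8 ± 9.31 CPM, and at 18 hpf the means were 4.78 ± 0.497 and 8.50 ± 1.64 CPM (SD, n = 2 each). It therefore reached the mean of 10 CPM through the Tcf libraries of 15 hpf, where it is high. KH.C4.697 held 11.8 ± 1.76 and 40.2 ± 31.9 CPM at 15 hpf, where the Tcf libraries were at 17.6 and 62.8 CPM, and 9.66 ± 3.16 and 33.0 ± 8.66 CPM at 18 hpf (SD, n = 2 each). No name or function is paired with these 4 identifiers. The pairs of models nearest to the profile and to its mirror image did not change with a prior count of 0.5 or with library totals. When any 1 library was left out, at least 1 of the 2 models nearest to the profile remained among the nearest 2. Without control replicate 2 at 15 hpf, control replicate 2 at 18 hpf or Tcf replicate 2 at 18 hpf, 0 of the 2 mirror models remained among the nearest 2.

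**Figure D4:**
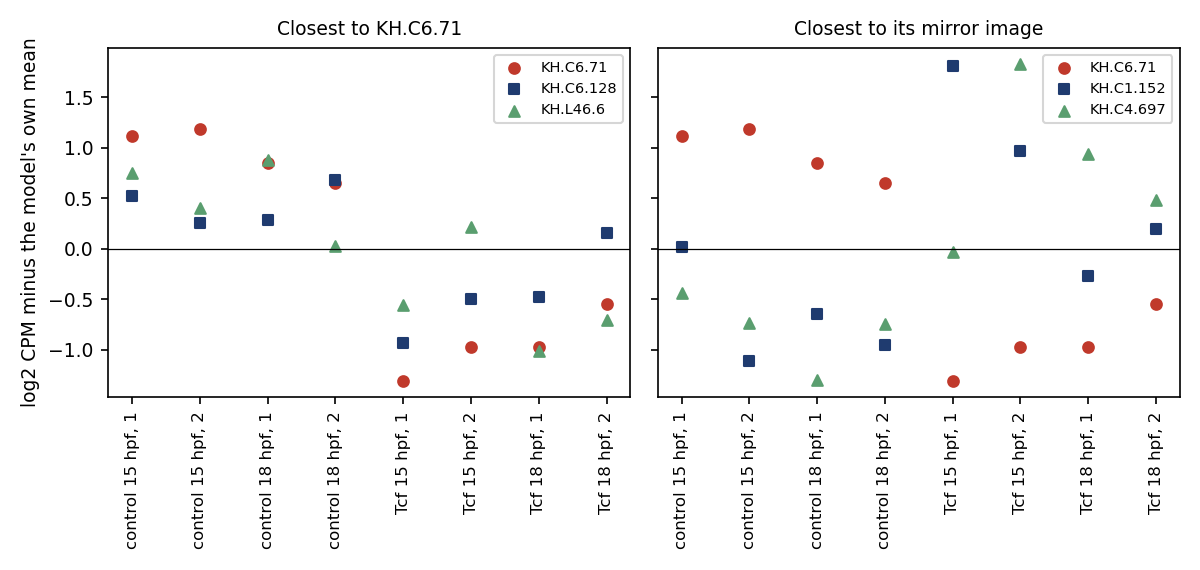
Log2 CPM of each of the 8 libraries minus the model's own mean (vertical axis), for KH.C6.71 and the 2 models nearest to its profile (left) or to its mirror image (right). The step between control and Tcf libraries is larger in KH.C6.71 than in KH.C6.128, whose RMS difference from it was 0.57.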

How the data were processed

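The authors deposited raw read counts per gene model of the KH2013 set, one table per library, made with TopHat2 2.0.12 and featureCounts per the submitters' processing notes. The sources used here do not give the genome build, the strand setting or the treatment of multi-mapping reads. RNA (250 to 2000 pg) was amplified with SMART-Seq v4, per the labels' protocols, and no molecular identifiers are described, so reads are not independent molecules. Title numbers named the replicates; the file headers reverse those of 2 libraries (control, 15 hpf).

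From the deposited counts, CPM was computed on the library total. edgeR 4.0.16 (limma 3.58.1, R 4.3.3) fitted 4 group means to all 8 libraries, with filterByExpr (minimum count 10, 11970 models kept), TMM factors and the robust quasi-likelihood F test. The SE of a log2 fold change is its size over the root of F. An exact permutation test of 2 against 2 libraries cannot fall below p = 0.333, so none was used. Alternatives were DESeq2 1.42.0, limma-voom, other scalings and filters, replicate blocks and leaving out each library.

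The member and the rules were chosen with earlier results of these data known. Named models were KH.C6.71, the 2 models (mean of at least 10 CPM) with the smallest RMS difference from its profile and the 2 nearest to its mirror image; 4 further models were named after their values were seen. Lists of Wnt pathway genes and progenitor markers could not be applied, because no identifier (0 of 15232) is paired with a name.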

Additional observations from a re-analysis of the deposited data

Results flagged for a closer look

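The change of KH.C6.71 with time ran in opposite directions in the 2 guides. In CPM of the library total, both control libraries of 18 hpf were below both of 15 hpf (18.9% of 11970 models). Both Tcf libraries of 18 hpf were above both of 15 hpf (38.8%), and 1.51% of models had both orders. The order in Tcf cells depended on the scaling. The nearest libraries of 15 and 18 hpf held 60.3 and 60.4 CPM with TMM factors, and 60.2 and 59.8 CPM with RLE factors. The interaction on the log2 scale was 0.79 (SE 0.24), and 21.0% of the 11970 models had one larger in size. The interaction was not tested, since it is made of the comparisons of guides that were known when the model was picked. Neither change with time passed its own test with TMM factors.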

How the results depend on the processing

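The log2 fold changes of KH.C6.71 between guides and their interaction kept their direction under every alternative run (17, 17 and 16). All also stayed within 1 SD, the root of the summed variances of log2 CPM between replicates in the groups compared. With 2 libraries in a group, leaving out 1 moves the group mean by less than that SD, so this limit cannot judge those runs. The other settings gave -2.31 to -2.29 at 15 hpf, -1.52 to -1.47 at 18 hpf and 0.78 to 0.84 for the interaction. Leaving out single libraries gave -2.46 to -2.13 at 15 hpf, -1.74 to -1.30 at 18 hpf and 0.55 to 0.99 for the interaction. The change with time in control did not pass in any of 17 alternatives (-0.51 to -0.28, adjusted p from 0.11 to 0.473). In Tcf cells it passed in 1 of 17, with library totals only (0.54, adjusted p = 0.0361; range of adjusted p 0.0361 to 0.731), and fell to 0.15 without Tcf replicate 2 at 18 hpf. The control mean at 15 hpf was 264 CPM with TMM and 266 CPM with RLE factors, against 252 CPM. Scaling by the library total without the 100 most abundant models was chosen after seeing the data and changed no call of KH.C6.71.

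The number of models called between guides at 15 hpf was 1, and 22 with DESeq2, 3 with limma-voom, 4 without a filter, and 2 each with library totals, with the replicate block by file header numbers and with only the groups compared; leaving out single libraries gave 1 to 19. At 18 hpf it was 1, and 16 with DESeq2, 0 with only the groups compared (edgeR, 563 at an unadjusted p under 0.05), and 0 to 6 without single libraries. KH.C6.71 was not called in the fit of only the groups compared or in that without Tcf replicate 1 of 18 hpf (286 at an unadjusted p under 0.05), where 0 models were. The cause was not tested. Between times, leaving out single libraries gave 931 to 1535 models in control and 687 to 1474 in Tcf cells.

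The titles give every group replicates 1 and 2, but nothing says that a number marks a shared batch. The deviations of same-numbered libraries correlated at -0.17 to 0.06 across models over 6 pairs of groups. With the replicate block by title numbers the change of KH.C6.71 with time was -0.39 in control (adjusted p = 0.172) and 0.39 in Tcf cells (0.207), and between guides -2.30 and -1.52.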
